A study of Drosophila melanogaster with 3 samples.

Results

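Orco and 5 odorant receptor genes (Or47a, Or33b, Or94a, Or94b and Or49b) were examined in single-cell libraries of larval chemosensory organs of the fruit fly. These 6 of the 10457 genes listed over the 3 libraries were chosen with their counts in the same libraries in view, because most of their counts lay in 1 library and in a few barcodes. Their levels are therefore given as a description, with no test. The libraries form 1 group of 3 replicates from third-instar Drosophila melanogaster larvae, and strain, genotype and driver of the fluorescent label are not given in the sources used here. Labelled sense organs were picked by hand, dissociated with enzymes and run on DisCo, a droplet method that pairs single cells with barcoded beads. Titles carry a further suffix for each library (Sens40M, SensMix and SensSingle for replicates 1, 2 and 3), which the labels do not explain.

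Fly odorant receptors are membrane proteins that form ligand-gated ion channels together with a shared co-receptor, Orco. Each olfactory neuron that uses these receptors makes Orco and usually 1 tuning receptor, which sets the odorants it responds to. Without Orco the tuning receptors do not reach the sensory cilium. In the larva these neurons lie in the dorsal organ, and mapping work has placed Or47a with Or33b in the same neuron, and Or94a with Or94b in another. Or49b is best known from the adult antenna and is not on the list of larval receptors used here, so the label larval rests on the other 4 tuning receptors.

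A count table with 1 column for each 12-base barcode was available for each library. The libraries held 508018, 689416 and 369432 counts in replicates 1, 2 and 3. Barcodes with at least 200 genes were kept, 61, 214 and 231 of them, and the deepest barcode of each library held 23.0%, 24.1% and 34.3% of the kept counts. Replicates 1 and 2 shared 1 barcode, replicates 2 and 3 shared 1, and replicates 1 and 3 shared 0. The summed level of 12 neuron markers was 115, 6547 and 13327 CPM (counts scaled to 1000000 kept counts) in replicates 1, 2 and 3, and that of 8 glia markers was 595, 3740 and 472 CPM. Replicate 1 thus stood apart, with 5 epidermis markers at 997 CPM against 61.2 and 14.5 CPM in replicates 2 and 3. Intervals below are exact 95% intervals and cover counting error only. A gene with no count is given the level of 3 counts as its upper limit.

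Orco was counted in 1 of the 3 libraries. It had 0 counts in replicate 1 (limit 6.03 CPM), 395 in the kept barcodes of replicate 2 (604 CPM, interval 546 to 667), and 0 in replicate 3 (limit 8.68 CPM). The tuning receptors followed the same division. Or47a had 249 kept counts in replicate 2 (381 CPM, interval 335 to 431), Or33b had 42 (64.2 CPM, interval 46.3 to 86.8), and Or94b had 107 (164 CPM, interval 134 to 198), with 0 counts of each in replicates 1 and 3. Or94a had 0, 113 and 1 kept counts in replicates 1, 2 and 3, the 113 giving 173 CPM (interval 142 to 208). Or49b had 0, 9 and 11. The summed level of the 6 genes was 0, 1399 and 34.7 CPM, a mean of 478 ± 798 CPM (SD, n = 3), and 17.4 CPM without replicate 2. Replicate 3 had no Orco count although its summed neuron markers stood higher than those of replicate 2. Of that list, elav had 30 counts in replicate 2 and 4 in replicate 3, brp had 97 and 12, and nSyb had 117 and 590. The deepest barcode of replicate 3 held 2101 of its 4606 neuron marker counts.

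**Figure D1:**
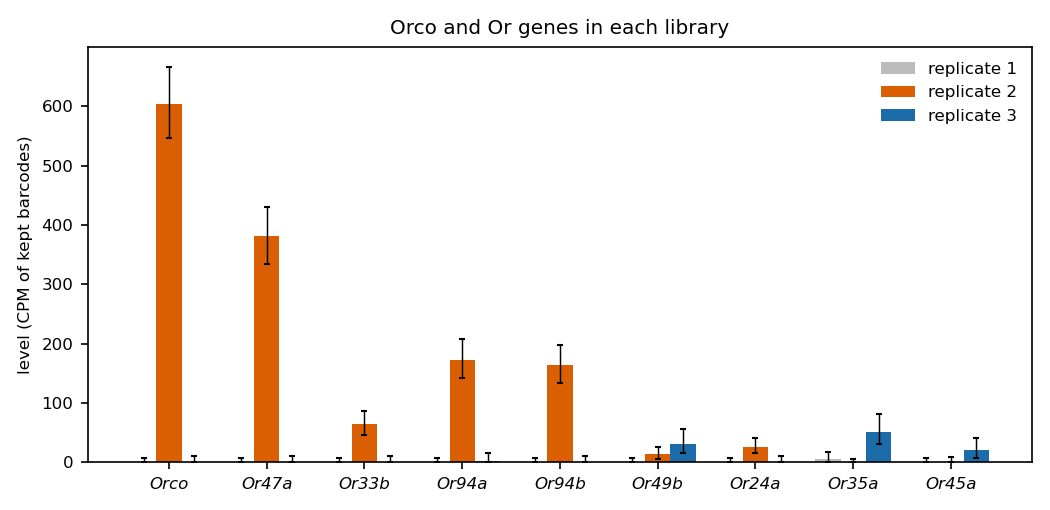
Level of Orco and of the Or genes with at least 5 counts in any library (vertical axis, CPM of the kept barcodes) in the 3 replicates, with exact 95% Poisson intervals. Orco and the 4 larval tuning receptors stand in replicate 2, and Or49b, Or35a and Or45a are higher in replicate 3.

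Other odorant receptor genes were sparse. Of 25 genes on a list of larval receptors taken from mapping studies, 14 had a count in any library and 7 had at least 5. Replicates 1, 2 and 3 listed 6, 15 and 10 odorant receptor genes, Orco included. The 6 genes described here held 915 of 941 odorant receptor counts (97.2%) in the kept barcodes of replicate 2. The corresponding values were 0 of 9 for replicate 1 and 12 of 43 (27.9%) for replicate 3. Or24a had 0, 20 and 0 counts in replicates 1, 2 and 3, all barcodes included. Or35a had 3, 0 and 18 counts, the 18 spread over 11 barcodes, and Or45a had 0, 1 and 9. Replicate 3 therefore held counts of tuning receptors, but none of the co-receptor.

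Or49b lay apart from the other 5 genes, with more counts in replicate 3 than in replicate 2. In replicate 3 all 11 counts lay in 1 barcode, the eighth deepest, which held 4353 counts of 1052 genes, and Or49b reached 2527 CPM there (interval 1261 to 4521). The barcode carried 28 counts of 7 neuron markers and 2 counts of glia markers. In replicate 2, 6 of 9 Or49b counts lay in the deepest barcode, at 38.1 CPM (interval 14 to 83.0).

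Within replicate 2, the share of barcodes with Orco rose with depth while the level of Orco changed little. Orco was counted in 5.57% of barcodes with under 200 genes, in 21.9% of those with 200 to under 500, in 44.0% of those with 500 to under 1000, and in 86.2% of those with at least 1000. In the same 4 classes its level was 453, 519, 853 and 597 CPM, and without 4 barcodes rich in receptor counts, described below by rank, 453, 519, 514 and 415 CPM. When each barcode was thinned to 400 counts, which left out 64 shallower kept barcodes, the expected share with Orco was 20.1%, 19.1% and 19.9% in the 3 kept classes, against 26.0%, 44.0% and 86.2% unthinned in the same barcodes. Or47a stood at 226, 266, 1079 and 345 CPM across the 4 classes, with expected shares of 10.9%, 18.1% and 12.6% after thinning. Or94a stood at 56.6, 79.8, 201 and 184 CPM, and Or94b at 141, 133, 125 and 171 CPM. Or33b stood at 28.3, 13.3, 100 and 68.6 CPM. Without the same 4 barcodes the upper 2 classes were at 429 and 176 CPM for Or47a, 229 and 72.4 for Or94a, 143 and 96.6 for Or94b, and 0 and 19.8 for Or33b. The tables assign no cell types, so a share in a cell type that should lack Orco could not be set beside these shares, and the part of free RNA in them was not tested.

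**Figure D2:**
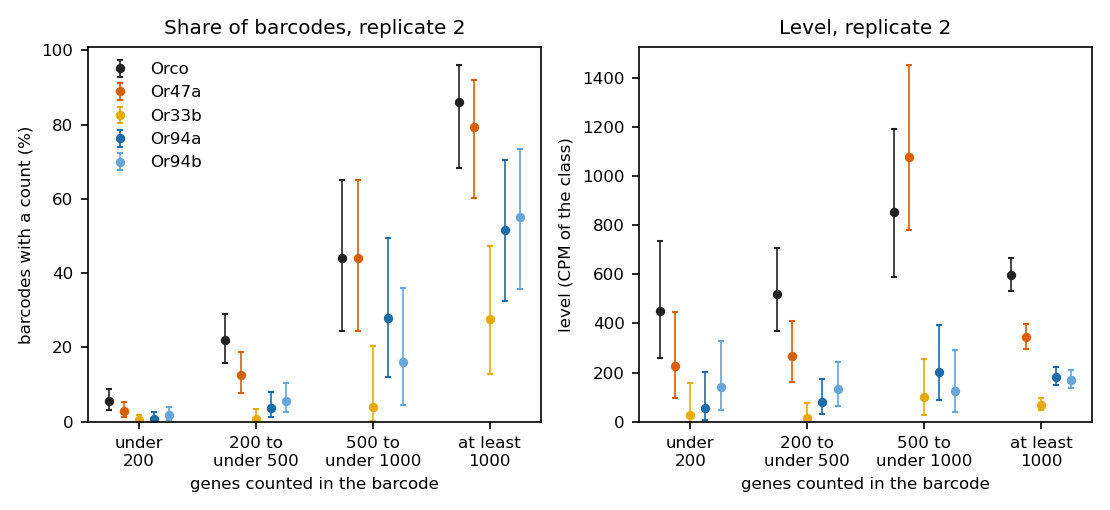
Share of replicate 2 barcodes with a count (left, percent) and level (right, CPM of the summed class) for 5 genes in 4 classes of depth, with exact 95% binomial and Poisson intervals. The shares climb with depth for each gene, whereas Orco lies between 453 and 853 CPM in all 4 classes.

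The counts of the tuning receptors were gathered in a few barcodes, in 2 separate combinations. Barcodes are named by rank of total counts, rank 1 being the deepest. The first combination, Or47a with Or33b, stood out in rank 5 (38370 counts, 3673 genes), which held 89 counts of Or47a, 24 of Or33b, 83 of Orco, 3 of Or94b and 0 of Or94a. Rank 20 (4871 counts, 995 genes) held 28 of Or47a, 4 of Or33b, 16 of Orco and 0 of Or94a and Or94b. Rank 30 (2823 counts, 1129 genes) held 6 of Or47a, 3 of Or33b, 8 of Orco and 1 of Or94b. The barcodes of ranks 20 and 30 each differ by 3 edits from that of rank 5, and whether the 3 barcodes come from 1 cell was not tested. Together they held 7.04% of kept counts, but 49.4% of Or47a (interval 43.0 to 55.8), 73.8% of Or33b (58.0 to 86.1) and 27.1% of Orco (22.8 to 31.8). In them Or47a stood at 2670 CPM against 207 CPM in the other kept barcodes, Or33b at 673 against 18.1 CPM, and Orco at 2323 against 474 CPM. They held 0 of 113 Or94a counts and 4 of 107 Or94b counts.

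The second combination, Or94a with Or94b, stood out in rank 4 (42197 counts, 3698 genes, 6.45% of kept counts). It held 66 counts of Or94a, 1564 CPM against 76.8 CPM in the other kept barcodes, and 44 of Or94b, 1043 against 103 CPM. Orco had 42 counts there, 995 against 577 CPM. Or47a had 11, 261 CPM (interval 130 to 466) against 389 CPM, and Or33b had 1. The 389 CPM takes in the barcodes of the first combination, which were rich in Or47a. Outside the barcodes of either combination Or47a stood at 203 CPM (interval 168 to 244). Against that level, Or47a was not shown to be lower in rank 4. Rank 3 matched neither combination, with 52 counts of Orco (1040 CPM, interval 777 to 1364) and 17 of the 4 larval tuning receptors together. Rank 8 likewise held 13 counts of Orco (1108 CPM, interval 590 to 1894) and 6 of tuning receptors. Orco made up 75.4% of the joint counts of Orco and the 4 tuning receptors in rank 3 (interval 63.5 to 84.9), 25.6% in rank 4 (19.1 to 33.0) and 41.7% in rank 5 (34.8 to 48.9).

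**Figure D3:**
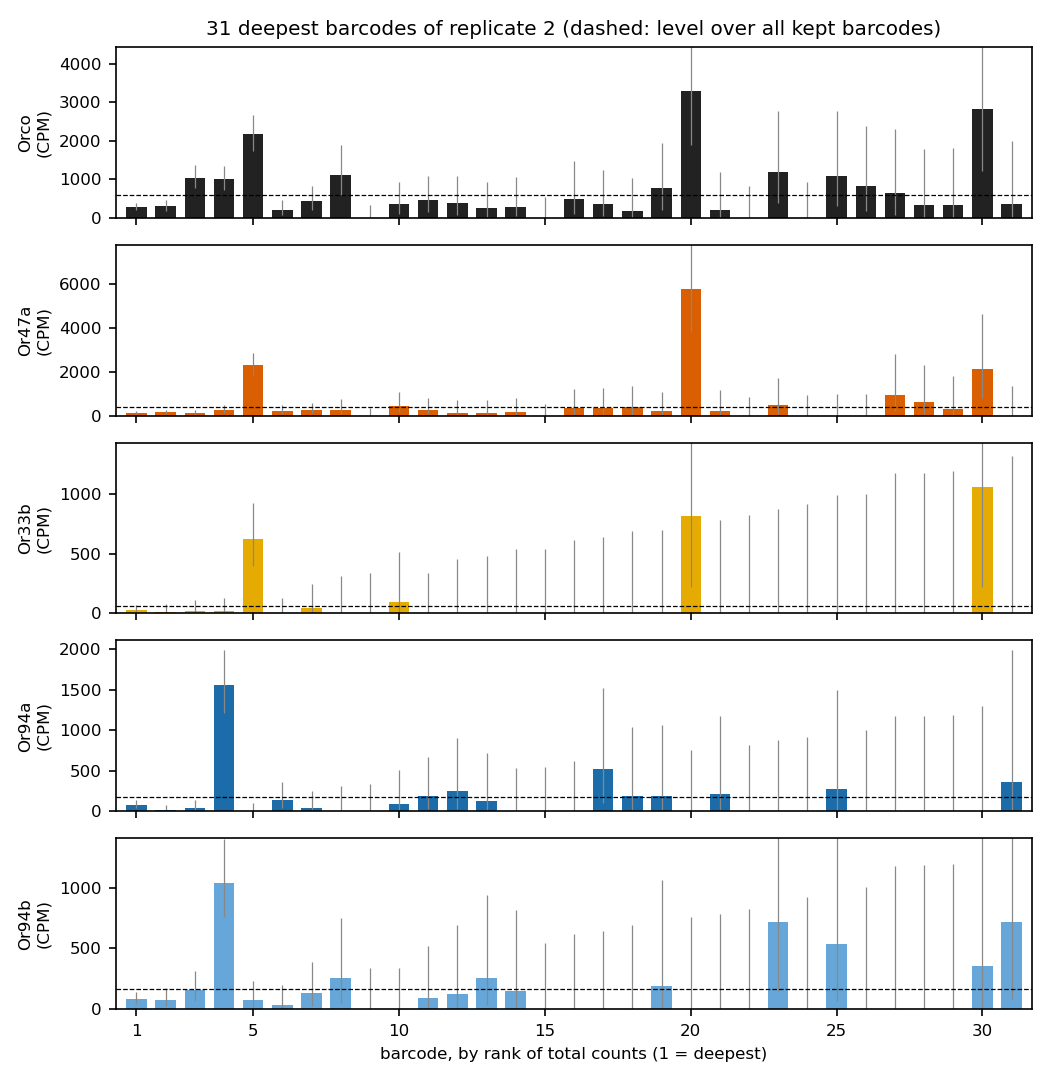
Level of 5 genes (vertical axes, CPM of the barcode) in the 31 deepest barcodes of replicate 2, with exact 95% Poisson intervals, some of which run past the axis. Or47a and Or33b peak in ranks 5, 20 and 30, Or94a and Or94b in rank 4, and Orco lies above its library level of 604 CPM in these 4 and in ranks 3, 8, 19, 23, 25, 26 and 27, of which rank 3 has an interval clear of 604 CPM.

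Away from these 4 barcodes the make-up of the tuning receptor counts had similar point values at every depth, with wide intervals in the shallower classes. It is compared between barcodes, not between genes, since counts are not corrected for length. Or47a and Or33b made up 113 of the 116 counts of the 4 larval tuning receptors in rank 5 (97.4%, interval 92.6 to 99.5), 32 of 32 in rank 20, 9 of 10 in rank 30, and 12 of 122 in rank 4 (9.84%, interval 5.19 to 16.6). In the other 210 kept barcodes they made up 125 of 231 (54.1%, interval 47.5 to 60.7). By depth without the 4 barcodes, their share was 56.3% of 16 counts under 200 genes (interval 29.9 to 80.2). It was 56.8% of 37 counts in the next class (39.5 to 72.9). In the class after it the share was 53.6% of 28 counts (33.9 to 72.5). At 1000 genes or more it was 53.6% of 166 counts (45.7 to 61.4). The shallower classes held too few counts to show that the make-up was the same. Rank 1, the deepest, held 27 counts of the first pair and 25 of the second. Orco made up 50.0%, 51.3%, 39.1% and 53.2% of the joint counts in the same 4 classes. The intervals were 31.9 to 68.1, 39.6 to 63.0, 25.1 to 54.6 and 47.9 to 58.5. Since the 4 barcodes were set apart by these counts, the contrast between them and the rest is a description.

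**Figure D4:**
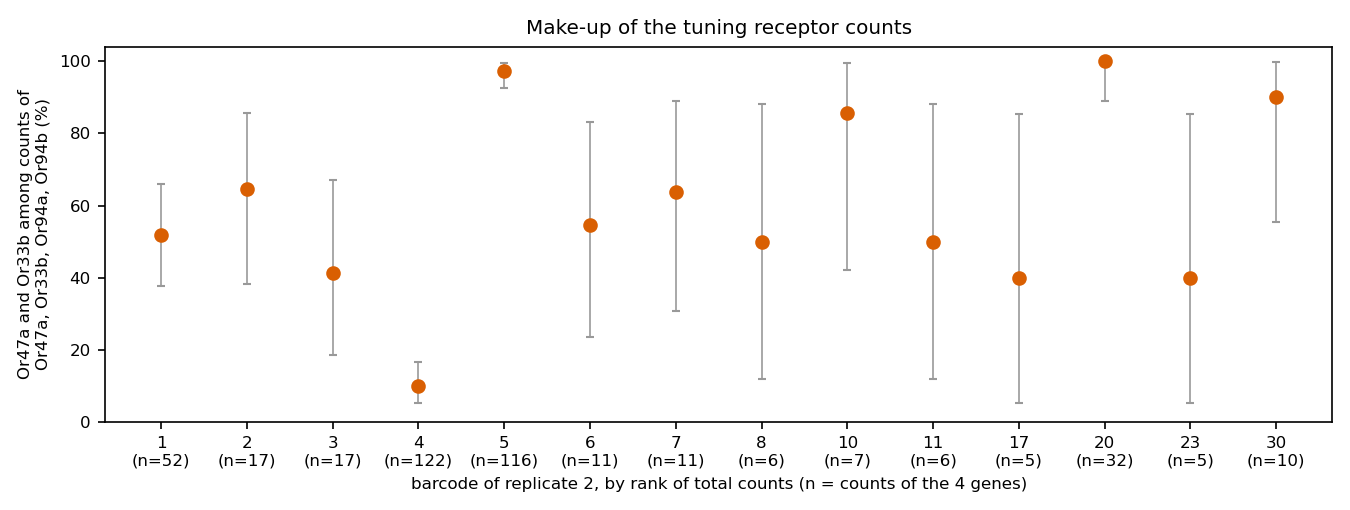
Percent of the counts of Or47a, Or33b, Or94a and Or94b that belonged to Or47a or Or33b, in each of the 31 deepest barcodes of replicate 2 with at least 5 such counts, with exact 95% binomial intervals. Ranks 5, 20 and 30 lie at 90% or above and rank 4 at 9.84%, while rank 1 lies at 51.9%.

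Detection of 2 genes in the same barcode varied with depth. Orco was counted in 31 of 54 barcodes with Or47a (57.4%) and in 40 of 160 without it (25%), but the median depth was 1933 against 442 counts. Among barcodes of 200 to under 500 genes the same counts were 4 of 20 and 31 of 140, and from 500 to under 1000 genes 4 of 11 and 7 of 14. Among the deepest class they were 23 of 23 and 2 of 6. For Orco with and without Or94a, the same 3 classes gave 3 of 6 and 32 of 154, 5 of 7 and 6 of 18, and 15 of 15 and 10 of 14. With and without Or94b they gave 4 of 9 and 31 of 151, 2 of 4 and 9 of 21, and 16 of 16 and 9 of 13. Orco was thus counted more often with Or94a or Or94b in each kept class, from few barcodes. Or47a was counted in 9 of 10 barcodes with Or33b and in 45 of 204 without it, at median depths of 30490.5 and 495 counts. In the deepest class it was counted in 8 of 8 and in 15 of 21. Or94b was counted in 12 of 28 barcodes with Or94a and in 17 of 186 without it, at median depths of 4205 and 475 counts. In the deepest class it was counted in 11 of 15 and 5 of 14. Among barcodes of 200 to under 500 genes these were 0 of 6 and 9 of 154. Or47a was counted in 19 of 28 barcodes with Or94a and in 35 of 186 without it. In the deepest class these were 14 of 15 and 9 of 14. Of 54 barcodes with Or47a, 19 held Or94a and 9 held Or33b, against 9 and 1 of 160 without it. Shared detection was thus not confined to the 2 combinations. Of all kept barcodes, 42 held Orco with any of the 4 larval tuning receptors, 29 held Orco without one, 32 held a tuning receptor without Orco, and 111 held neither.

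Of the 29 barcodes with at least 1000 genes, 4 had no Orco count, and 3 of these stood high in glia markers. They were ranks 9, 15, 22 and 24, with 10942, 6787, 4473 and 4011 counts, and were set apart by that lack of Orco, so their Orco level is no comparison. The single limits were 274, 442, 671 and 748 CPM, the last 2 of them above the library level of 604 CPM. The 4 larval tuning receptors had 0 counts in these 4 barcodes and 414 in the other 25. The glia list lay between 2906 and 9322 CPM in the 4 and between 1002 and 7925 CPM in the 25 (median 2246), so the ranges overlapped. Of that list, nrv2, a subunit of the sodium pump, stood at 5483, 5304 and 4986 CPM in ranks 9, 15 and 24 and at 1565 CPM in rank 22. Rank 1, with Orco, had nrv2 at 4314 CPM and held 679 of the 1113 nrv2 counts of the 25. Mdr65, a transporter of the glial blood-brain barrier, was at 725 CPM (interval 436 to 1132) over the 4 and 152 CPM (120 to 190) over the 25. The glial factor repo had 0 counts in the 4 and 14 in the 25. The neuron list lay between 3536 and 16767 CPM in the 4 and between 2887 and 12557 CPM in the 25, with rank 22 at the upper end. Ranks 9, 15 and 24 differ by 3 edits from the barcode of rank 1. Such likeness was not confined to the barcodes singled out, since ranks 16 and 33 differ by 3 edits from that of rank 2. The part of glial RNA and of barcode likeness in the lack of Orco counts was not tested.

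**Figure D5:**
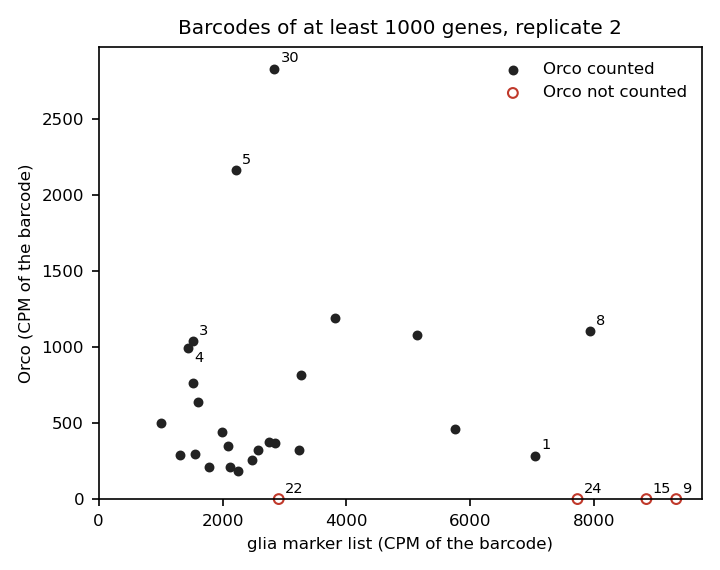
Orco (vertical axis, CPM of the barcode) against the summed level of 8 glia markers (horizontal axis, CPM of the barcode) in the 29 barcodes of replicate 2 with at least 1000 genes, some labelled by depth rank. The 4 barcodes without Orco lie between 2906 and 9322 CPM of glia markers.

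Genes whose level varied with Orco were sought over the same 29 barcodes by Pearson correlation of log2(CPM + 10), as a description, since all barcodes come from 1 library and differ in depth. Of 3077 genes, 111 (3.61%) had r of at least 0.5, and the median r was 0.08. The 5 highest were Lcp4, a larval cuticle protein (r = 0.79), GstD2, a glutathione S-transferase (0.78), RpL34a, a ribosomal protein (0.77), CG2065 (0.77) and GstE4, a further glutathione S-transferase (0.76). Or47a was at 0.68, position 16 among all genes, Or94b at 0.57, Or33b at 0.42 and Or94a at 0.21. Over barcodes of at least 500 genes r was 0.22 for Or47a, 0.37 for GstD2, 0.41 for CG2065 and 0.40 for GstE4, and 13 genes reached 0.5. With Spearman's rho, Lcp4 was at 0.46, RpL34a at 0.42, CG2065 at 0.41 and Or47a at 0.44, so the list depends on the barcodes and the measure used. With Or47a, the genes most alike were CG10638 (r = 0.79), glob1, a globin (0.72), Sem1, a proteasome component (0.72), eIF-4E, the cap-binding initiation factor (0.68), and CG9662 (0.66). With Or94a they were CG8032 (0.72), fu12 (0.67), CG10326 (0.65), robl, a dynein light chain (0.63), and tgo, a transcription factor (0.62).

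Shallow barcodes with and without Orco were compared gene by gene. The 35 barcodes of 200 to under 500 genes that held Orco were summed and set beside the 125 without. The sums held 16903 and 58306 counts, so a gene with few counts had very few in the Orco sum. Of 626 genes with at least 20 counts, 28 (4.47%) were at least 2-fold higher with Orco and 56 (8.95%) at least 2-fold lower. The intervals lay apart for 3 genes above and 5 below. How many would do so by counting error was not computed, so nothing is read from these numbers. The 3 above were unc-104, a kinesin motor of axonal transport, with 13 against 7 counts (6.41-fold), alpha-Est9, an esterase, with 11 against 9 (4.22-fold), and fz2, a Wnt receptor, with 61 against 107 (1.97-fold). The 5 below were ox, Lcp65Ac, bun, Obp56c and mt:CoI, the last a subunit of cytochrome c oxidase at 0.712 of the level without Orco. Or47a stood at 237 CPM with Orco and 274 CPM without. Or94a stood at 177 against 51.5 CPM, from 3 counts on each side, and Or94b at 237 against 103 CPM, from 4 and 6 counts. The intervals overlapped for all 3. The neuron list was at 5975 against 5368 CPM and the glia list at 2366 against 3053 CPM.

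Of 13 genes known from olfactory neurons, 6, 10 and 9 were listed in replicates 1, 2 and 3, against 6290, 7721 and 5926 of all 10457 genes. In replicate 2, 7 of the 13 had at least 20 counts. The share of all genes with as many counts is not given here, so nothing is read from this number. ATP8B, a lipid flippase needed for odorant receptor function, had 0, 54 and 0 counts, and acj6, a POU factor that acts in receptor choice, had 3, 98 and 1. Of the cilium genes, btv had 1, 69 and 9 counts in replicates 1, 2 and 3. For nompB these were 1, 21 and 0, and for ktub 0, 45 and 0. Rfx, a regulator of cilium genes, had 1, 30 and 1. The transcription factor onecut had 0, 28 and 9. Its intervals in replicates 2 and 3 overlapped, at 28.4 to 61.9 and 9.99 to 45.6 CPM of the kept counts. Other genes of the list did not share the division: Snmp1, a CD36-type protein of pheromone-sensing neurons, had 0, 1 and 10 counts, and pdm3 had 69, 7 and 2. Ir25a, a co-receptor of the ionotropic receptors, had 0, 43 and 37 counts, so replicate 3 held this co-receptor and not Orco. Of 10 odorant-binding proteins, 2, 5 and 5 were listed. Obp28a had 26044, 1588 and 4866 counts and Obp56d had 43, 1035 and 645.

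Some of these genes lay in the barcodes rich in receptor counts. Of 943 genes with at least 10 counts in ranks 5, 20 and 30, 227 (24.1%) were at least 4-fold higher there than in the other kept barcodes. The minimum inside these barcodes favours genes that are high there, and Or33b, Or47a and Orco chose the barcodes, so nothing is read from this share or from their folds. Rfx had 15 of its 30 counts in the 3 barcodes (13.2-fold) and ATP8B 19 of 54 (7.17-fold). The other genes of the olfactory neuron list had fewer than 10 counts in these barcodes and were not compared. Of 904 genes with at least 10 counts in rank 4, 160 (17.7%) were at least 4-fold higher there, under the same limit. In rank 4, btv had 13 of 61 counts (3.93-fold), ATP8B 11 of 54 (3.71-fold) and acj6 14 of 91 (2.64-fold). ATP8B was thus raised in both sets of barcodes. Rank 3, rich in Orco but not in the tuning receptors, held 21 of 91 acj6 counts (420 CPM, interval 260 to 642). Rank 39, with 0 Orco counts, held 6 acj6 counts (3759 CPM, interval 1380 to 8183).

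The genes' surroundings in the annotation are given here with the counts of their neighbours. On chromosome arm 3R, Or94a (FBgn0039033) is followed on the same strand by Or94b (FBgn0039034), and both lie in an intron of Nha2, a sodium/proton exchanger gene on the opposite strand. Nha2 had 20 of its 29 kept counts in rank 4 (69.0%, interval 49.2 to 84.7), at 474 CPM against 14.7 CPM elsewhere. CG43112, the next gene before Or47a (FBgn0026386, arm 2R) and on the same strand, had 10 of 14 counts in ranks 5, 20 and 30 (71.4%, interval 41.9 to 91.6). The exons of Nha2 overlap neither Or94a nor Or94b. Whether counting used strand or took in introns is not given in the sources used here. How well reads of Nha2 and of the receptor genes inside it were told apart was not tested, so the values of both are uncertain. Cpr47Ea, whose exons overlap Or47a on the opposite strand, had 1 count. Or33b (FBgn0026391, arm 2L) lies between Or33a, with 1 count, and Or33c, with 0, and Orco (FBgn0037324, arm 3R) and Or49b (FBgn0028963, arm 2R) overlap no other gene.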

How the data were processed

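Single-cell RNA was measured with DisCo in 3 replicate libraries of 1 group, from larval peripheral chemosensory organs. The authors deposited whole-number counts per gene and barcode, not normalized, per the file headers. STAR 2.7.0 and Seurat 3.1.2 are named without a role, per the submitters' processing notes. The counter, genome build, annotation, strand setting, collapsing of copies and barcode correction are not given in the sources used here, so values are called counts, not molecules, and no coordinates are printed. FlyBase identifiers and gene arrangement come from Ensembl BDGP6 and RefSeq tables, matched by symbol.

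Kept barcodes had 200 genes or more. No doublet caller was run, no doublets were removed, and mitochondrial counts set no limit. CPM are counts scaled to 1000000 over the summed kept barcodes, or of the class or barcode named. No lengths were used, so levels of different genes are not compared, and the share of one gene in joint counts is compared between barcodes. Exact 95% Poisson and binomial (Clopper-Pearson) intervals were computed with scipy 1.17.1 (Python 3.11.15, pandas 2.3.3, numpy 2.4.6). Barcodes are not replicates and there is 1 group, so no test was made. Nothing says that the libraries came from separate animals. The correlation and fold steps were tested on simulated data, with recovery required only for genes with many counts. How well they recover genes with few counts is not given here.

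The genes and lists were chosen with earlier results of these data known. Named were the 6 genes and the 5 other genes with the highest r with each of Orco, Or47a and Or94a. Up to 5 genes each way with intervals apart in shallow barcodes were named too. So were other Or genes with at least 5 counts in any library. Genes of the olfactory lists were named from 20 counts in replicate 2. Snmp1, pdm3, Nha2, CG43112, Cpr47Ea, Or33a, Or33c, the marker genes elav, brp, nSyb, nrv2, Mdr65 and repo, ranks 3, 8 and 39, and the sets of ranks 4 and of 5, 20 and 30 were singled out after their values were seen. The alternatives changed the genes per barcode, barcode merging, detection from 2 counts, gene minimum, correlation, pseudocount, depth by thinning, and barcodes or replicates left out.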

Additional observations from a re-analysis of the deposited data

How the results depend on the processing

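The share of replicate 2 barcodes with Orco (33.2%) was 17.4% over all barcodes with a count, 66.7% from 500 genes and 14.5% when 2 counts were required. After thinning to 400 counts it was 19.9% of the 150 barcodes deep enough, against 40.7% of the same barcodes unthinned. The share of Or47a barcodes with Orco (57.4%) was 79.4% from 500 genes, 77.3% when 2 counts were required and 50.0% over all barcodes with a count. The share of Or33b barcodes with Or47a (90.0%) was 100% from 500 genes (9 of 9) and when 2 counts were required (4 of 4). It was 77.8% (7 of 9) after merging within 3 edits and 81.8% (9 of 11) over all barcodes with a count. It was 83.3% (5 of 6) without ranks 4, 5, 20 and 30, and 85.7% (6 of 7) without the 3 deepest barcodes. The 111 genes with r of at least 0.5 with Orco became 28 when barcodes within 3 edits were merged, 45 with Spearman's rho and 13 from 500 genes, and 26 and 8 of the 111 were shared with the last 2 lists. The 28 genes higher in shallow barcodes with Orco became 108 with a minimum of 10 counts and 1 with 50. The Or47a share of its top barcode (35.7%) was 49.0% after merging within 3 edits, an alternative chosen after seeing the data. Merging within 1 edit changed none of these values. The summed level (mean 478 CPM) ran from 17.4 CPM without replicate 2 to 717 CPM without replicate 1, and was 297 CPM without ranks 4, 5, 20 and 30, a choice also made after seeing the data. The cause of these shifts was not tested. No paired analysis was possible because there is 1 group. Depth limits the shallow barcodes, where a single count sets detection.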

Other observations

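Other genes were gathered in the same barcodes as the receptors, and they are named here after their values were seen. In ranks 5, 20 and 30 of replicate 2, the 5 genes with the largest folds over the other kept barcodes, among those with at least 10 counts inside, were Dip2 (13 of its counts inside and 1 outside), Ent1, a nucleoside transporter (11 and 2), JhI-1 (15 and 3), CG14463 (18 and 5) and ftz-f1, a nuclear receptor (17 and 5). In rank 4 they were CG4449 (17 and 4), Ccz1 (11 and 3), CG34371 (10 and 4), Naa60 (12 and 5) and Nha2 (20 and 9). Each of these counts is small, the minimum inside favours genes that are high there, and the sets were chosen by their receptor counts.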
